A study of Mus musculus with 12 samples.

Results

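The subject of this account is the SMC2 population, 1 of 2 smooth muscle cell populations sorted from mouse aorta and the fat around it, set against the 3 other sorted populations of the same study. SMC2 has 3 of the 12 RNA-sequencing libraries. Of 19016 genes with enough counts to be tested, 1919 had all 3 SMC2 libraries above all 9 others and 1688 had all 3 below all 9 others, and these genes are described here. The cells came from the aorta and its perivascular adipose tissue, the fat wrapped around the vessel, of wild-type male CD-1 mice at 13 weeks of age. CD-1 is an outbred strain. They were sorted by flow cytometry into progenitor cells (Progenitor), intermediate cells (Intermediate) and the smooth muscle populations SMC1 and SMC2, with 3 libraries each. No group carried a transgene or received a treatment according to the labels.

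Smooth muscle cells of the arterial wall contract in response to calcium entry and to agonists at G protein coupled receptors, and relax through potassium channels and cyclic nucleotides. Those of large elastic arteries also build the elastic and collagen fibres of the wall, whereas the mural cells of small resistance vessels are known for receptors and channels that set tone. Adipocytes, the other main cell type of perivascular fat, store triglyceride in droplets coated by perilipins under the control of the nuclear receptor Pparg, and thermogenic adipocytes burn it in mitochondria that carry the uncoupling protein Ucp1.

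SMC2 held contractile smooth muscle transcripts far above Progenitor and Intermediate, though in sum below SMC1. Transcripts of mature adipocytes and lipid droplets and of vasoactive receptors summed higher in SMC2 than in any other population, and single ion channel genes were far higher. It had the lowest levels of most elastic and collagen fibre genes. Levels are CPM, counts scaled to a common library size. Differences are log2 changes of the SMC2 mean against the average of the 3 other groups, each weighted equally, with their standard error. That average is taken over log2 group means, so a population with very low levels pulls it down. A gene counted as called where its p from the edgeR quasi-likelihood test, adjusted over all 19016 genes by the Benjamini-Hochberg method, was under 0.05. That held for 8298 genes (43.6%), of which 4227 (22.2% of all tested) were higher in SMC2 and 4071 (21.4%) lower, and the median log2 change of all genes was 0.03. Libraries of a group are separate samples in the labels, but nothing says that they came from separate animals, so the p-values cover only library-to-library spread, part of which may be technical. The labels name no antibody or gate, so whether a gene below served in the sort is not known here. In bulk RNA, fewer cells of a type and less RNA per cell cannot be told apart.

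The smooth muscle label held against its defining genes. Acta2, the smooth muscle actin, stood at 16652, 14942 and 11929 CPM in SMC2, 21050.2, 16910.3 and 20494 in SMC1, 243, 299 and 214 in Intermediate and 96.8, 282 and 229.6 in Progenitor. Myh11, which encodes smooth muscle myosin, stood at 8336, 5636 and 5052 CPM in SMC2, 8092, 7617 and 9664 in SMC1, 69.97, 112 and 88.5 in Intermediate and 31.9, 91.5 and 114 in Progenitor. Both SMC populations were far above the other 2. The SMC2 libraries overlapped those of SMC1 for Myh11, and for Acta2 the highest SMC2 library was just below the lowest SMC1 library.

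Depth ran from 13258631 to 22647175 counts per library and was lowest in SMC2 replicate 3. That library nevertheless had the most genes with at least 10 counts, 19799 against 15603 to 18005 in the 9 libraries of the other groups. Mitochondrially encoded genes took 1.49% to 1.86% of counts in SMC2 and 0.54% to 1.45% elsewhere. Across genes, pairs of libraries correlated in log2 CPM at 0.968 to 0.983 among the SMC2 libraries and 0.913 to 0.933 between SMC2 and SMC1.

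The rule that all 3 libraries of a population lie above all 9 others held for 10.1% of genes in SMC2, 9.27% in SMC1, 6.97% in Intermediate and 6.66% in Progenitor. The rule that all 3 lie below held for 8.88% in SMC2, 7.14% in SMC1, 4.09% in Intermediate and 7.26% in Progenitor. Of the 1919 genes above, 1890 were called higher, and of the 1688 below, 1670 were called lower. The rule and the test use the same libraries, so this overlap is no separate support. Another 2337 genes were called higher and 2401 lower although at least 1 SMC2 library overlapped another population. The gap between the SMC2 libraries and the nearest other library was 0.486 log2 units in the median of the genes above and 0.308 in the median of those below. It reached 1 log2 unit for 507 genes above (2.67%) and 209 below (1.1%). The group with the nearest mean was SMC1 for 1015 of the genes above, Progenitor for 501 and Intermediate for 403. At the edge of the rule, Faim and Ndufs8 lay inside it with gaps of 0.000447 and 0.00115 log2 units, and Smc4 and Dnajc8 lay just outside.

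The genes above were 79.5% protein coding, close to the 78.9% of all tested genes. The genes below were 94.0% protein coding. Long noncoding or antisense RNAs made up 13.3% of all tested genes, 14.3% of those above and 4.44% of those below. Across the 1919 genes above, SMC2 replicate 1 was the highest of the 3 SMC2 libraries for 75.8%, replicate 3 for 14.9% and replicate 2 for 9.38%. Across the 1688 genes below, replicate 1 was the lowest for 44.4% and replicate 3 for 41.9%.

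**Figure D1:**
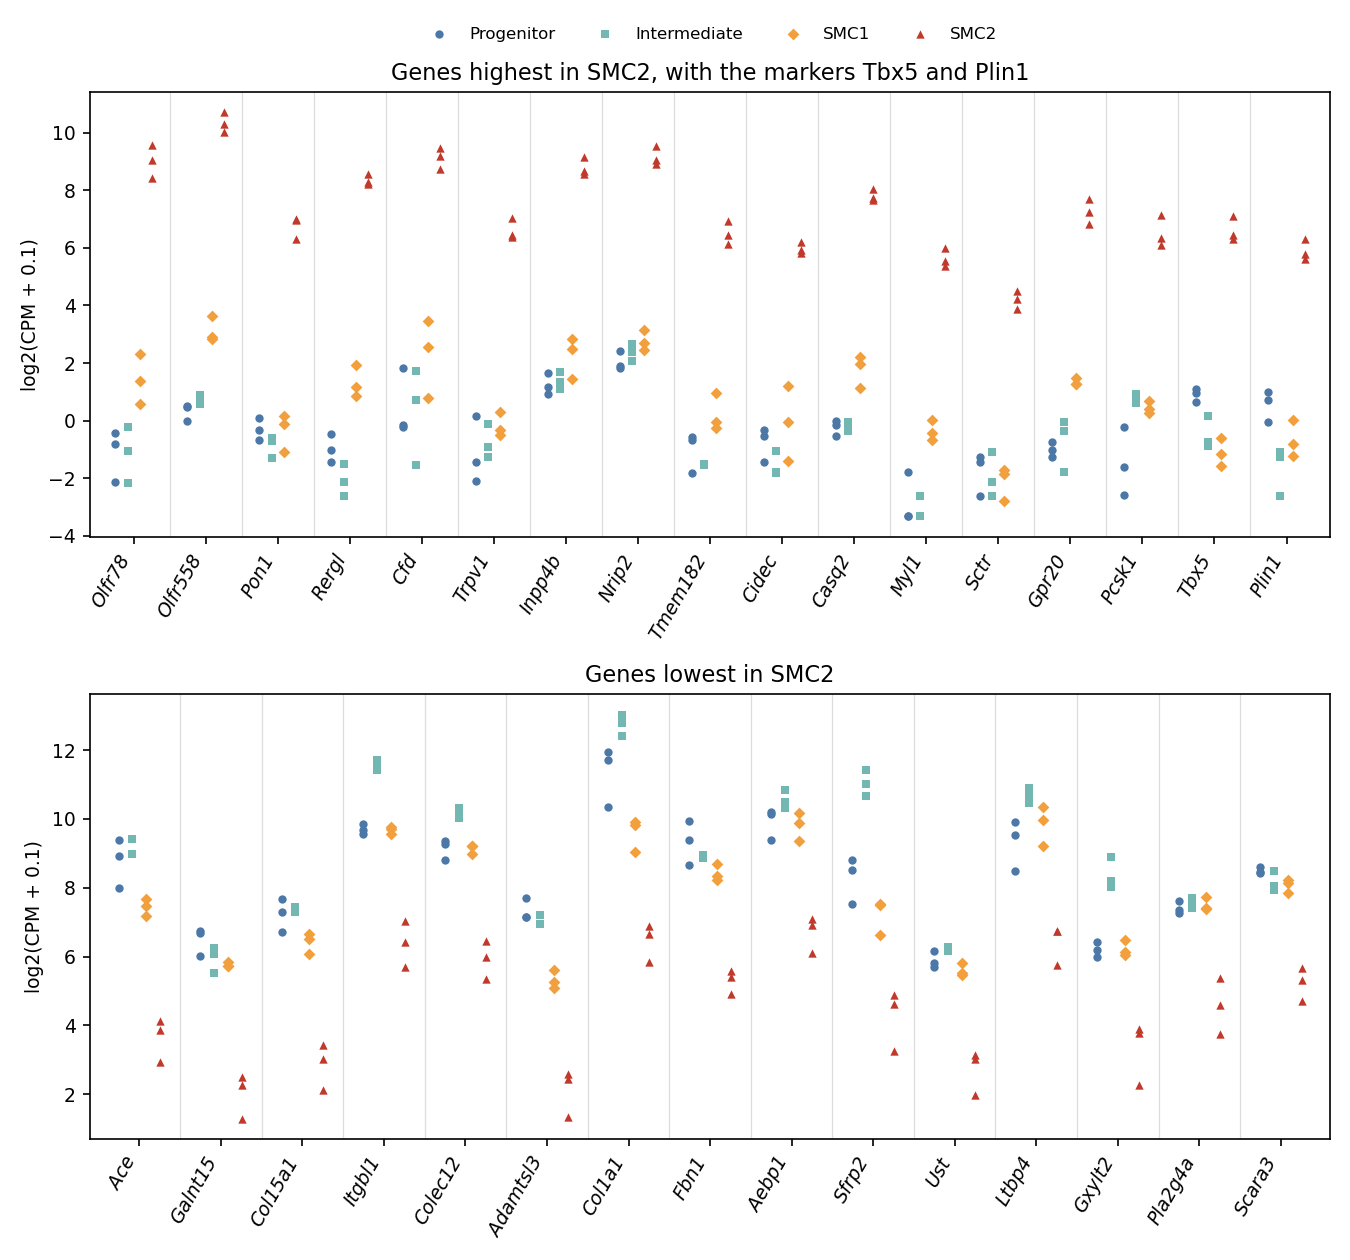
Levels of 17 genes high in SMC2 (top) and 15 genes low in SMC2 (bottom) as log2(CPM + 0.1) on the vertical axis. Each point is 1 library, 3 per population. In the top panel every SMC2 library stands above all 9 others, and in the bottom panel every SMC2 library stands below them.

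The genes that stood furthest above the nearest other population were the paired olfactory receptor genes Olfr78 and Olfr558. Both encode G protein coupled receptors first described in the nose and are also known from blood vessels. Olfr78 (chromosome 7, 102738511 to 102759471 in GRCm38, the assembly UCSC calls mm10) stood at 769, 527 and 345 CPM in SMC2, 4.84, 2.47 and 1.41 in SMC1, 0.124, 0.754 and 0.383 in Intermediate and 0.638, 0.467 and 0.126 in Progenitor. Its log2 change was 9.38 ± 0.33 (adjusted p = 3.04e-12). Olfr558 (chromosome 7, 102702215 to 102712064) stood at 1666, 1252 and 1048 CPM in SMC2, 12.2, 7.46 and 7.03 in SMC1, 1.62, 1.76 and 1.41 in Intermediate and 1.28, 1.33 and 0.884 in Progenitor. Its log2 change was 9.01 ± 0.19 (adjusted p = 3.03e-18). In both genes the lowest SMC2 library was far above the highest SMC1 library, and SMC1 in turn was above Intermediate and Progenitor. The annotated genes lie 26.4 kb apart with 2 tested genes between them. Of the exon bases of Olfr78, 15.3% overlap another annotated gene, and the libraries do not mark strand, so reads of such stretches cannot be told apart.

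Rergl, a gene for a small GTPase of the Ras superfamily (chromosome 6, 139492973 to 139501976), stood at 381, 296 and 312 CPM in SMC2, 3.77, 1.73 and 2.17 in SMC1, 0.0621, 0.251 and 0.128 in Intermediate and 0.273, 0.40 and 0.632 in Progenitor. Its log2 change was 9.22 ± 0.20 (adjusted p = 6.11e-18), and the SMC2 libraries shared no range with any other group. Tbx5, a T-box transcription factor known from limb and heart development (chromosome 5, 119832668 to 119885219), stood at 136, 86.9 and 79.02 CPM in SMC2, 0.56, 0.233 and 0.351 in SMC1, 0.497, 0.44 and 1.02 in Intermediate and 1.87, 1.47 and 2.02 in Progenitor. Its log2 change was 7.03 ± 0.19 (adjusted p = 1.41e-16). Progenitor was the nearest group for Tbx5. Plin1, the main coat protein of adipocyte lipid droplets (chromosome 7, 79720218 to 79732903), stood at 80.02, 54.7 and 48.8 CPM in SMC2, 0.916, 0.326 and 0.469 in SMC1, 0.373, 0.0628 and 0.319 in Intermediate and 1.55, 0.867 and 1.89 in Progenitor. Its log2 change was 6.67 ± 0.23 (adjusted p = 6.43e-15), again with Progenitor nearest. Per transcript length (TPM, counts scaled by annotated exon length), the order of these markers in SMC2 was 1586 TPM for Olfr558, 1262 for Rergl, 329 for Olfr78, 78.3 for Tbx5 and 47.96 for Plin1.

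The remaining genes with the largest distance to the nearest population came from several functional classes. Trpv1, the capsaicin-gated cation channel, stood at 130.5, 83.8 and 88.1 CPM in SMC2, 1.12, 0.606 and 0.703 in SMC1, 0.435, 0.314 and 0.83 in Intermediate and 0.273, 0.133 and 1.01 in Progenitor. Casq2, a calcium-binding protein of the sarcoplasmic reticulum, stood at 261, 214 and 203 CPM in SMC2, 3.82, 4.57 and 2.11 in SMC1, 0.684, 0.879 and 0.703 in Intermediate and 0.592, 0.80 and 0.884 in Progenitor. Cfd, the adipocyte-secreted complement factor adipsin, stood at 427, 582 and 699.97 CPM in SMC2, 10.9, 1.63 and 5.8 in SMC1, 0.249, 3.2 and 1.53 in Intermediate and 3.42, 0.80 and 0.758 in Progenitor. The log2 changes were 7.43 ± 0.24 (adjusted p = 2.04e-14) for Trpv1, 7.48 ± 0.17 (adjusted p = 6.11e-18) for Casq2 and 7.76 ± 0.57 (adjusted p = 2.76e-06) for Cfd. Cfd varied most between the libraries outside SMC2, from 0.249 CPM in Intermediate replicate 1 to 10.9 in SMC1 replicate 1, without reaching SMC2.

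Further genes of this class were Pon1, a paraoxonase (log2 change 7.43), Inpp4b, a phosphoinositide phosphatase (7.20), Nrip2, a nuclear receptor-interacting protein (6.80, with 18.8% of exon bases overlapping another gene), Tmem182, a membrane protein known from muscle (7.55), and Cidec, which promotes the fusion of lipid droplets (6.88). Myl1, a myosin light chain of fast skeletal muscle, was at 50.7 ± 11.5 CPM in SMC2 (SD, n = 3) against 0.699 ± 0.199 in SMC1. Sctr, the secretin receptor, was at 18.5 ± 3.91 CPM against 0.216 ± 0.135 in Progenitor. Gpr20, an orphan G protein coupled receptor, was at 157 ± 47.6 CPM against 2.44 ± 0.222 in SMC1, and Pcsk1, a prohormone convertase, at 96.8 ± 38.9 against 1.57 ± 0.187 in Intermediate. In Pon1, Cfd and Cidec the highest SMC2 library was replicate 2 or 3 and the lowest replicate 1, whereas replicate 1 was highest for the other 12 genes of the 15. Where the other populations hold only a few reads per library, as for Myl1 in Progenitor, the size of the log2 change rests on those few reads.

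Promoter sequences are shown for 4 of these genes because they rise together in SMC2 and differ in the motifs they hold. Each is the stretch of 250 bases before the RefSeq start site in GRCm38, printed along the gene's own strand, and a table of such promoters held 24 of the 32 genes named by rank or as markers. Capitals mark a CArG box, the site of serum response factor in smooth muscle genes, in Rergl and Trpv1, and the T-box half-site AGGTGTGA in the second RefSeq promoter of Cidec, searched on both strands. Plin1 held none of the motifs searched, which were these 2 and the nuclear receptor half-site AGGTCA. Among genes not printed, the promoters of Olfr558, Pon1, Cfd, Inpp4b, Casq2, Myl1 and Pcsk1 held none either. The other RefSeq promoter of Cidec also held none.
Rergl, chr6:139501910-139502159, minus strand: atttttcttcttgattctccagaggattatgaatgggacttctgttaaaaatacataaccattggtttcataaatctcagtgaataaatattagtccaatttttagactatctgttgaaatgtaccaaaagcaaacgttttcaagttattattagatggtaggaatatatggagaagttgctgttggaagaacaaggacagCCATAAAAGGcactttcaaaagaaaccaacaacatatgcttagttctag
Trpv1, chr11:73233899-73234148, plus strand: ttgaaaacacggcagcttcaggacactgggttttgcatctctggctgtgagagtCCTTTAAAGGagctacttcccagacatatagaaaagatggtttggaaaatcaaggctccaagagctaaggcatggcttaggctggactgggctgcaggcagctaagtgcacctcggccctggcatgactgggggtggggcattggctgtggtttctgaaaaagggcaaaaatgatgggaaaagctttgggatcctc
Cidec, chr6:113434765-113435014, minus strand: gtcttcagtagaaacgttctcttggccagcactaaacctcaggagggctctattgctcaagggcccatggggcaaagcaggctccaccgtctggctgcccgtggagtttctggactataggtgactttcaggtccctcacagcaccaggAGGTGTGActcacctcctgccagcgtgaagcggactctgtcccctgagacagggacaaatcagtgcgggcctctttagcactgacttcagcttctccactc
Plin1, chr7:79732777-79733026, minus strand: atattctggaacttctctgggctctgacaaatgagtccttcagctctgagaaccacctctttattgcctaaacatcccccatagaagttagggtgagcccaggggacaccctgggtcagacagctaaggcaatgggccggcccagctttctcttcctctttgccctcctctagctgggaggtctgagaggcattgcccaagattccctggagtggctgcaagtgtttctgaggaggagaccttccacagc

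The CArG box lay from base -49 to -40 before the start of Rergl and from -196 to -187 before that of Trpv1. A CArG box was present in 1.22% of 16045 promoters of all tested genes, in 1.52% of promoters of the genes above and in 0.828% of those below. The T-box half-site was present in 0.804% of promoters of all tested genes, 0.818% of those above and 0.237% of those below. The nuclear receptor half-site was present in 11.3% of all, in 206 of 1711 promoters of the genes above and in 9.99% of those below. Among promoters of the genes at least 1 log2 unit above, 12 of 439 (2.73%) held a CArG box, among them those of Rergl and Trpv1. For those at least 1 log2 unit below the share was 0.885%. The T-box and nuclear receptor half-sites were in 0.683% and 12.5% of promoters of the genes above by that gap. For the genes below by that gap, the nuclear receptor share was 14.2%. A match describes the letters in this window only.

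The contractile genes separated both smooth muscle populations from the other 2, and against SMC1 more of them were lower than higher in SMC2. All 26 tested members of a contractile smooth muscle list were called higher against the mean of the others, with a median log2 change of 3.03. The list summed to 43574 to 60408 CPM in SMC2, 69557 to 81305 in SMC1 and 2039 to 3369 in the other 2 populations. Only Des, Tpm1, Mylk, Tpm2, Nrip2 and Pcp4l1 had SMC2 above all 9 other libraries. Against SMC1 alone, where 16.5% of all genes were called higher and 18.1% lower, 4 members were higher, 10 lower and 12 not called. The 4 were Des, Tpm1, Nrip2 and Pcp4l1, chosen for naming after their values were seen. Fitted with the 9 other libraries as a single group, which counts the differences among those populations as spread, 3 of the 26 were called. In that fit, used below for other lists too, 1697 of all 19016 tested genes were called higher and 1844 lower.

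Pcp4l1, a small calmodulin-binding protein related to Pcp4, stood at 749.6, 547 and 507 CPM in SMC2, 67.6, 55.9 and 60.1 in SMC1, 0.932, 1.07 and 1.09 in Intermediate and 1.23, 1.27 and 1.58 in Progenitor. Tpm2, a tropomyosin of the thin filament, stood at 3235, 2484 and 2489 CPM in SMC2, 2224, 2049.9 and 1978 in SMC1, 40.02, 50.8 and 39.98 in Intermediate and 20.01, 41.2 and 32.3 in Progenitor. Mylk, the myosin light chain kinase that starts contraction, stood at 1175, 842 and 849 CPM in SMC2, 675, 666 and 774 in SMC1, 25.5, 31.6 and 35.8 in Intermediate and 11.9, 21.4 and 18.4 in Progenitor. For Pcp4l1 the distance between SMC2 and SMC1 was large, a log2 change of 3.30 ± 0.18 (adjusted p = 3.77e-11). For Tpm2 and Mylk, SMC2 lay above SMC1 in every library, but the differences of 0.39 ± 0.22 (adjusted p = 0.182) and 0.44 ± 0.21 (adjusted p = 0.112) were not called. Of the genes lower in SMC2 than SMC1, Itga8, an integrin subunit, differed by -3.18 ± 0.30 (adjusted p = 7.03e-08), Cnn1, calponin, by -1.73 ± 0.30 (adjusted p = 1.30e-04), Smtn, smoothelin, by -1.91 ± 0.20 (adjusted p = 2.58e-07) and Myocd, the smooth muscle coactivator, by -0.98 ± 0.30 (adjusted p = 0.0179).

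Several genes of striated and cardiac muscle were also higher in SMC2 than in the mean of the others. Of 26 tested members, 14 were called higher and 0 lower (median log2 change 0.93), and 7 lay above all other libraries. Without SMC2 replicate 3, 11 were called higher and 2 lower, and in the single-group fit 7 were higher. The level of the list was shared with SMC1, with sums of 549 to 758 CPM in SMC2, 567 to 796 in SMC1 and 54.8 to 107 in the other 2 populations. Against SMC1 alone, 11 members were higher and 2 lower. Besides Myl1, the sarcoplasmic calcium-binding gene Hrc was at 20.9 ± 6.11 CPM (SD, n = 3) against 5.74 ± 0.623 in SMC1, and Mybpc1, a myosin-binding protein of slow skeletal muscle, at 20.9 ± 5.24 against 0.723 ± 0.286 in Progenitor. Pygm, muscle glycogen phosphorylase, was called higher (2.16 ± 0.14, adjusted p = 5.45e-11) with SMC2 overlapping SMC1. The defining striated genes Myh6, Myh7 and Ckm were not called and stayed below 2 CPM in the SMC2 mean.

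**Figure D2:**
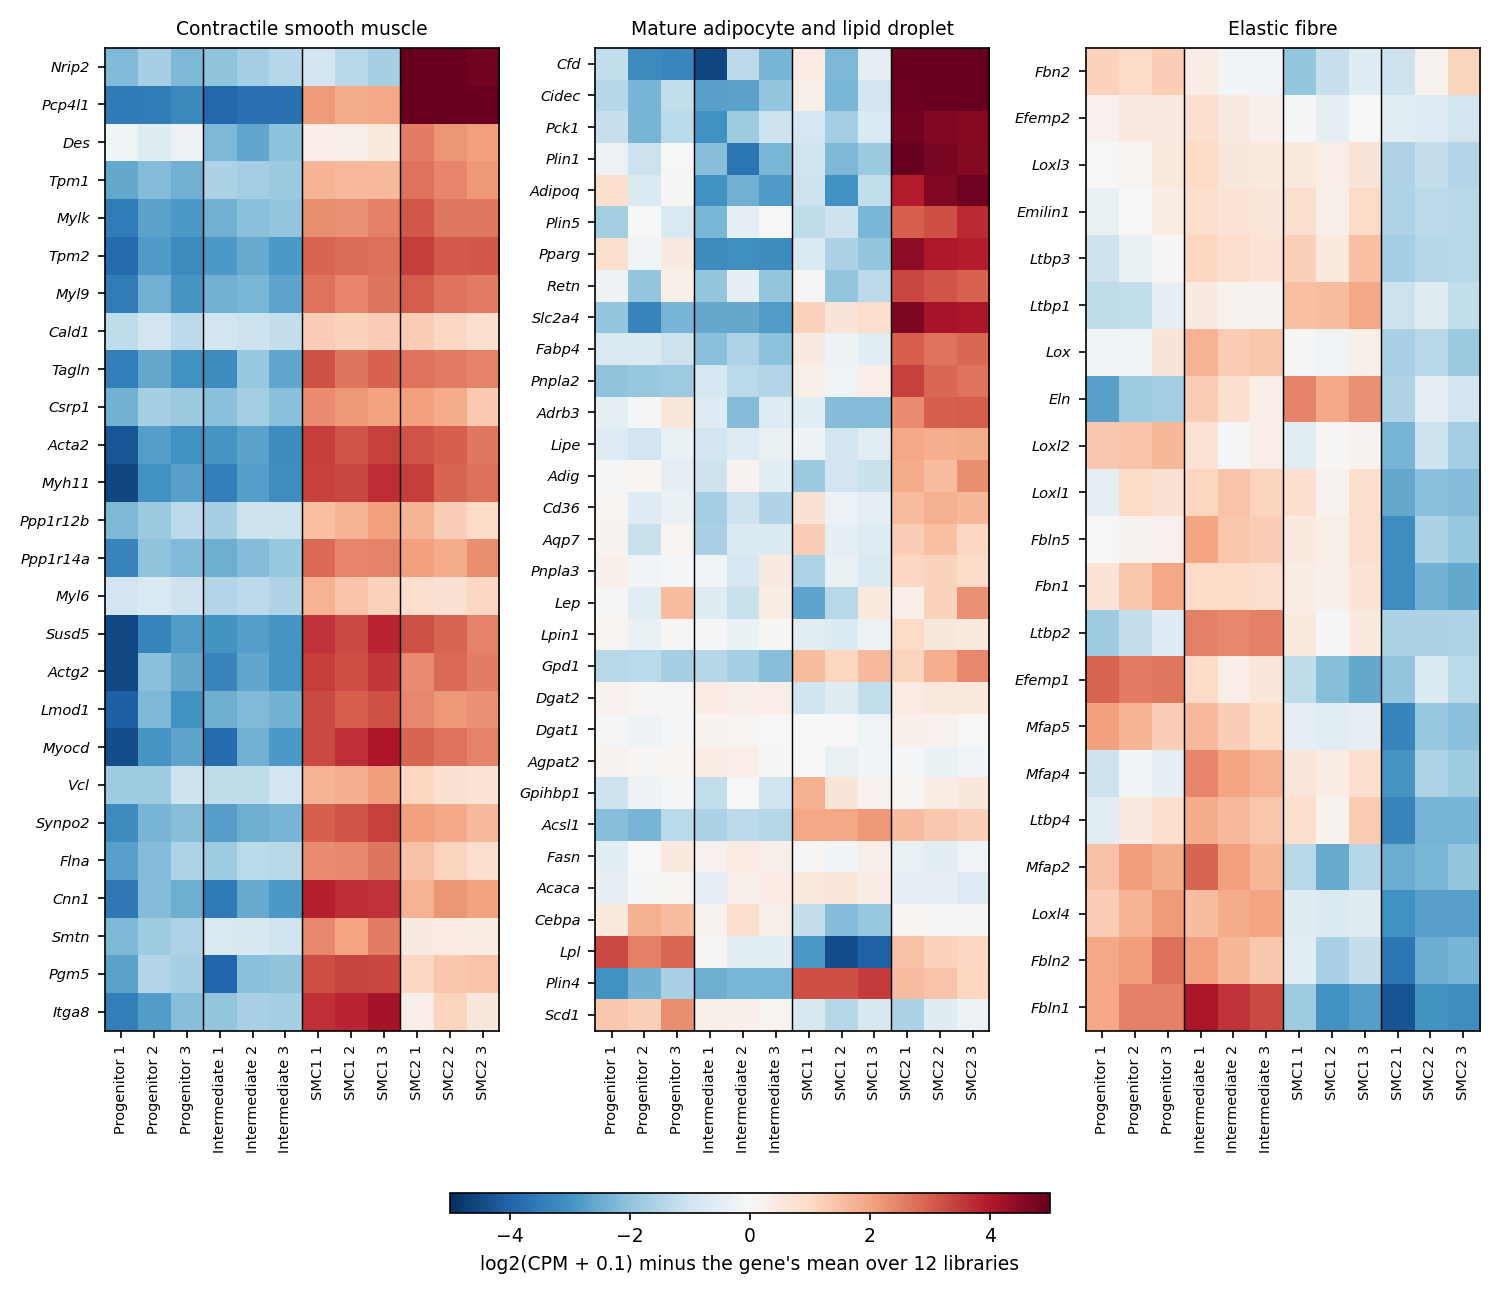
Levels of the contractile, mature adipocyte and elastic fibre lists in all 12 libraries, as log2(CPM + 0.1) minus each gene's mean over the libraries, with the colour scale ending at 5 in both directions. Genes are ordered by the SMC2 mean minus the highest mean of the other populations, largest at the top. Contractile genes are high in SMC1 and SMC2, the upper adipocyte genes in SMC2, and elastic fibre genes other than Fbn2 are below the mean of the others in SMC2.

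Most of the listed lipid storage genes were higher in SMC2 than in SMC1 as well as in the other populations. Of 31 tested members of a mature adipocyte and lipid droplet list, 24 were called higher, 3 lower and 4 not called, with a median log2 change of 2.18, and 17 lay above all 9 other libraries. Against SMC1 alone, 21 were higher and 3 lower. In the fit with the others as a single group, 18 were higher and 0 lower. Pparg, the regulator of adipocyte differentiation, stood at 456, 329 and 315 CPM in SMC2, 12.4, 6.76 and 5.33 in SMC1, 2.24, 2.32 and 2.24 in Intermediate and 38.1, 18.1 and 27.6 in Progenitor. Adipoq, the hormone adiponectin, stood at 59.7, 96.9 and 114 CPM in SMC2, 1.73, 0.373 and 1.58 in SMC1, 0.373, 0.628 and 0.447 in Intermediate and 6.97, 2.27 and 3.92 in Progenitor. Pnpla2, the lipase that starts triglyceride breakdown, stood at 1008, 690.3 and 622 CPM in SMC2, 115, 82.4 and 121 in SMC1, 52.1, 37.3 and 34.5 in Intermediate and 23.3, 25.3 and 27.2 in Progenitor. SMC2 overlapped no other group in any of the 3, with Progenitor nearest for Pparg and Adipoq and SMC1 nearest for Pnpla2. Slc2a4, the insulin-responsive glucose transporter, rose by 5.73 ± 0.18 (adjusted p = 1.35e-15), and Pck1, the enzyme of glyceroneogenesis, by 6.33 ± 0.22 (adjusted p = 4.66e-15). Of the 17 genes above, replicate 1 was the highest SMC2 library in 9, replicate 2 in 2 and replicate 3 in 6. Replicate 1 was highest in 75.8% of all genes above, whereas for Adipoq it was the lowest SMC2 library. The part of mature adipocyte RNA in the SMC2 results was not tested.

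Other members did not follow. Cebpa, the partner of Pparg in adipocytes, was not called (log2 change 0.00), with 3.58 ± 0.195 CPM in SMC2. The 3 members called lower were the genes of fatty acid synthesis and desaturation Scd1 (-1.05 ± 0.27, adjusted p = 0.00485), Acaca (-0.67 ± 0.17, adjusted p = 0.00361) and Fasn (-0.51 ± 0.17, adjusted p = 0.0192). Lpl, lipoprotein lipase, was highest in Progenitor, at 644, 517 and 476 CPM in SMC2, 31.1, 10.7 and 13.9 in SMC1, 238, 162 and 158 in Intermediate and 2282, 1327 and 1693 in Progenitor. The leptin gene Lep had 1.64 ± 1.17 CPM in SMC2 (SD, n = 3), with libraries overlapping those of Progenitor. Summed over the 31 members, the list took 4720.3 to 5530.1 CPM in SMC2, 1947 to 2976 in Progenitor, 926 to 1221 in SMC1 and 624 to 717 in Intermediate.

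Most genes of thermogenic fat were higher in SMC2, while Ucp1 itself was near 1 CPM. Of 21 tested members of that list, 17 were called higher and 2 lower (median log2 change 1.62), and 12 lay above all other libraries. In the single-group fit 11 were higher, and against SMC1 12 were higher and 2 lower. Ppargc1a, the coactivator of mitochondrial biogenesis, stood at 40.4, 30.5 and 23.3 CPM in SMC2, 7.99, 8.21 and 7.09 in SMC1, 8.39, 5.9 and 6.13 in Intermediate and 1.32, 0.867 and 1.71 in Progenitor. Its relative Ppargc1b rose by 4.41 ± 0.21 (adjusted p = 3.16e-13). Prdm16, a brown fat regulator, was called higher (2.12 ± 0.16, adjusted p = 4.27e-10), but SMC1 was higher still, with 93.6 ± 14.5 CPM against 49.8 ± 10.9 in SMC2 (SD, n = 3), a log2 difference of SMC2 from SMC1 of -0.91 ± 0.20 (adjusted p = 0.00106). Ucp1 had 1.01, 1.04 and 0.96 CPM in SMC2, 0 to 0.356 in SMC1, 0.0621 to 0.754 in Intermediate and 0.267 to 0.911 in Progenitor. The gap to the nearest Progenitor library was small and the log2 change was 1.65 ± 0.60 (adjusted p = 0.0293). It was not called when any 1 of the SMC2 libraries, Progenitor replicate 2 or SMC1 replicate 3 was left out, with adjusted p from 0.0527 to 0.098 in edgeR's test.

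Mitochondrial enzyme genes were higher by smaller amounts. Of 35 tested subunits of the respiratory chain, 33 were called higher, 0 lower, and 24 lay above all 9 others, with a median log2 change of 0.91. Against SMC1, 25 were higher and 0 lower. Uqcrfs1, the Rieske iron-sulfur subunit of the cytochrome bc complex, stood at 236, 186 and 176 CPM in SMC2, 82.6, 69.4 and 66.1 in SMC1, 51.5, 42.5 and 39.5 in Intermediate and 62.1, 54.3 and 51.5 in Progenitor. Cycs, cytochrome c, stood at 393, 331 and 357 CPM in SMC2, 119, 109.5 and 78.2 in SMC1, 84.1, 68.7 and 69.2 in Intermediate and 129, 124 and 105 in Progenitor. Both showed SMC2 above every other library without large spread. Sdhc of succinate dehydrogenase rose by 1.74 ± 0.13 (adjusted p = 9.40e-10).

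Fatty acid oxidation and Krebs cycle enzymes moved alike. Of 31 tested, 25 were called higher and 2 lower (median 0.95), and 21 lay above all other libraries, with 23 higher and 1 lower against SMC1. Eci1 and Acadm, enzymes of beta-oxidation, rose by 1.82 ± 0.12 (adjusted p = 8.00e-11) and 1.90 ± 0.13 (adjusted p = 1.93e-10). Hadhb, of the mitochondrial trifunctional protein, rose by 1.64 ± 0.14 (adjusted p = 4.53e-09), and Idh3a, of isocitrate dehydrogenase, by 1.73 ± 0.13 (adjusted p = 9.66e-10). Cpt2, the inner carnitine palmitoyltransferase, and Slc25a20, the carnitine carrier, were not called (-0.08 and -0.02). SMC2 also had the highest share of mitochondrially encoded counts, given above, and the part of that difference in these results was not tested. SMC2 replicate 1 was the highest SMC2 library in 23 of the 24 respiratory chain genes above and in 21 of the 21 oxidation genes above.

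**Figure D3:**
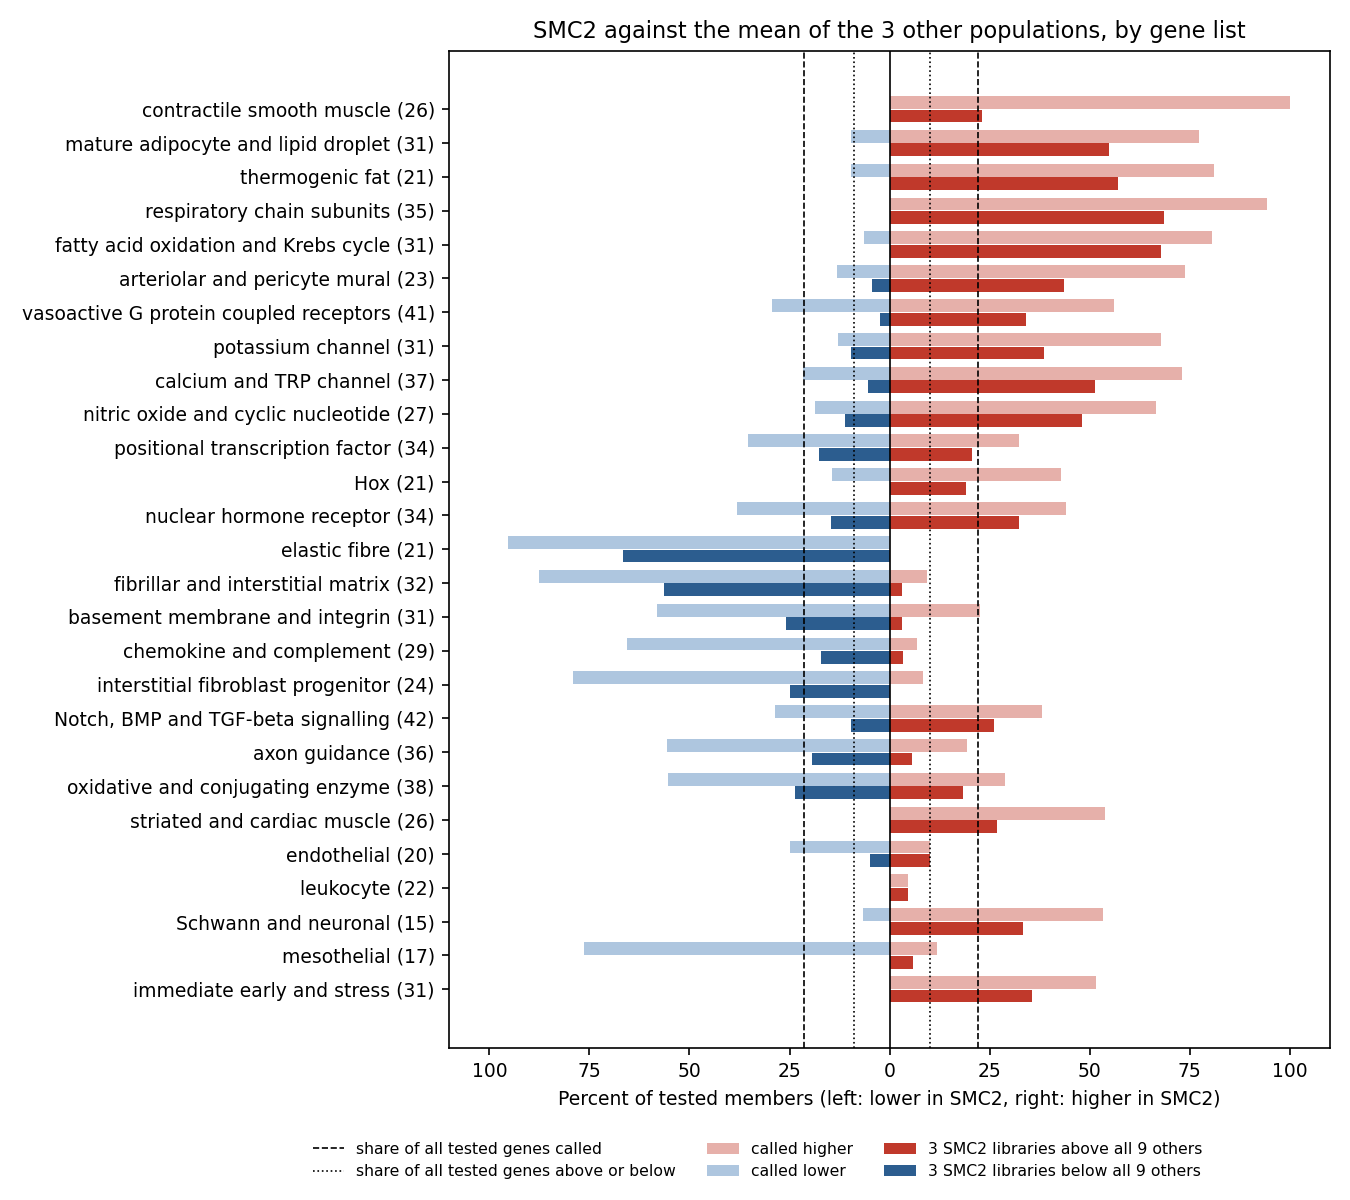
Share of tested members of each list that was called (light bars) or whose SMC2 libraries all lay above or below the 9 others (dark bars), to the right for higher and to the left for lower in SMC2, in percent; the number tested is in brackets. Dashed lines mark the shares of all tested genes called higher (22.2%) and lower (21.4%), dotted lines the shares above (10.1%) and below (8.88%).

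Genes for ion channels were mostly higher in SMC2 than in the mean of the others, and less one-sided against SMC1. Of 31 tested potassium channel genes, 21 were called higher and 4 lower (median 2.06), with 12 above and 3 below all other libraries, and 12 higher and 4 lower in the single-group fit. Against SMC1 alone, 13 were higher, 9 lower and 9 not called, and the summed level was higher in SMC1 (1966 to 2244 CPM) than in SMC2 (1413 to 1859). Kcna5, a voltage-gated channel of vascular muscle, stood at 158, 142 and 110.3 CPM in SMC2, 4.17, 4.06 and 4.04 in SMC1, 0.249, 0.0628 and 0.192 in Intermediate and 0.0911, 0.467 and 0.126 in Progenitor. Kcnk3, an acid-sensitive background channel, stood at 171, 106 and 102 CPM in SMC2, 11.4, 5.32 and 8.26 in SMC1, 0.186, 0.44 and 0.255 in Intermediate and 0.182, 0.133 and 0.253 in Progenitor. Kcnj12, an inward rectifier, stood at 51.4, 36.5 and 38.9 CPM in SMC2, 6.92, 5.08 and 6.97 in SMC1, 0.186, 0.126 and 0.128 in Intermediate and 0.182, 0.20 and 0.379 in Progenitor. For these channels the order was SMC2, SMC1 and then the other 2 populations at a few reads each. Kcna1, 104984 bases from Kcna5 on chromosome 6 and named after its values were seen, was also above all others (4.23 ± 0.22, adjusted p = 3.02e-12).

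The subunits of the ATP-sensitive potassium channel moved in opposite directions. The sulfonylurea receptor gene Abcc8 stood at 62.1, 35.9 and 44.8 CPM in SMC2, 2.09, 1.87 and 1.93 in SMC1, 0.186, 0.314 and 0.447 in Intermediate and 0.592, 1.0001 and 1.07 in Progenitor. Abcc8 thus changed by 5.86 ± 0.18 (adjusted p = 7.62e-16). Its partner and neighbour Kcnj11, which lies 3.8 kb away on chromosome 7, rose by 3.84 ± 0.31 (adjusted p = 2.08e-09). The paralogous pair Abcc9 and Kcnj8, which encodes the channel known from vascular muscle and lies on chromosome 6 with 16.2 kb between the genes, went the other way. Abcc9 stood at 43.4, 74.3 and 59.7 CPM in SMC2, 364, 432 and 549.8 in SMC1, 318, 309.6 and 364 in Intermediate and 73.5, 87.8 and 146 in Progenitor, and Kcnj8 at 35.6, 48.7 and 50.9 CPM in SMC2, 103, 82.8 and 86.3 in SMC1, 214, 179 and 142 in Intermediate and 66.8, 71.9 and 60.8 in Progenitor. Their log2 changes were -2.07 ± 0.22 (adjusted p = 1.96e-07) and -1.19 ± 0.16 (adjusted p = 2.58e-06). Every SMC2 library was below all others for Kcnj8, and for Abcc9 the highest SMC2 library overlapped the lowest Progenitor library. Per transcript length SMC2 held 65.7 TPM of Kcnj8 against 5.85 of Kcnj11, and 26.2 of Abcc9 against 21.5 of Abcc8. Apart from Abcc8, these genes were chosen after their values were seen.

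Of 37 tested calcium and TRP channel and calcium-handling genes, 27 were called higher and 8 lower (median 1.33), with 19 above and 2 below all others, and 16 higher and 2 lower in the single-group fit. The share called lower, 21.6%, was that of all tested genes (21.4%) or close to it. Compared with SMC1, 19 were higher and 6 lower. Pln, phospholamban, the inhibitor of the sarcoplasmic calcium pump, stood at 93.2, 71.6 and 64.4 CPM in SMC2, 4.68, 4.62 and 4.22 in SMC1, 0.435, 0.44 and 0.383 in Intermediate and 0.273, 0.267 and 0.316 in Progenitor. Trpc6, a receptor-operated cation channel, rose by 6.33 ± 0.18 (adjusted p = 1.55e-16). It was at 46.4 ± 8.86 CPM in SMC2 and 1.93 ± 0.198 in SMC1. The store-operated calcium entry genes Orai2 (-2.12) and Stim2 (-1.19) were the 2 genes below all others, named after their values were seen.

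**Figure D4:**
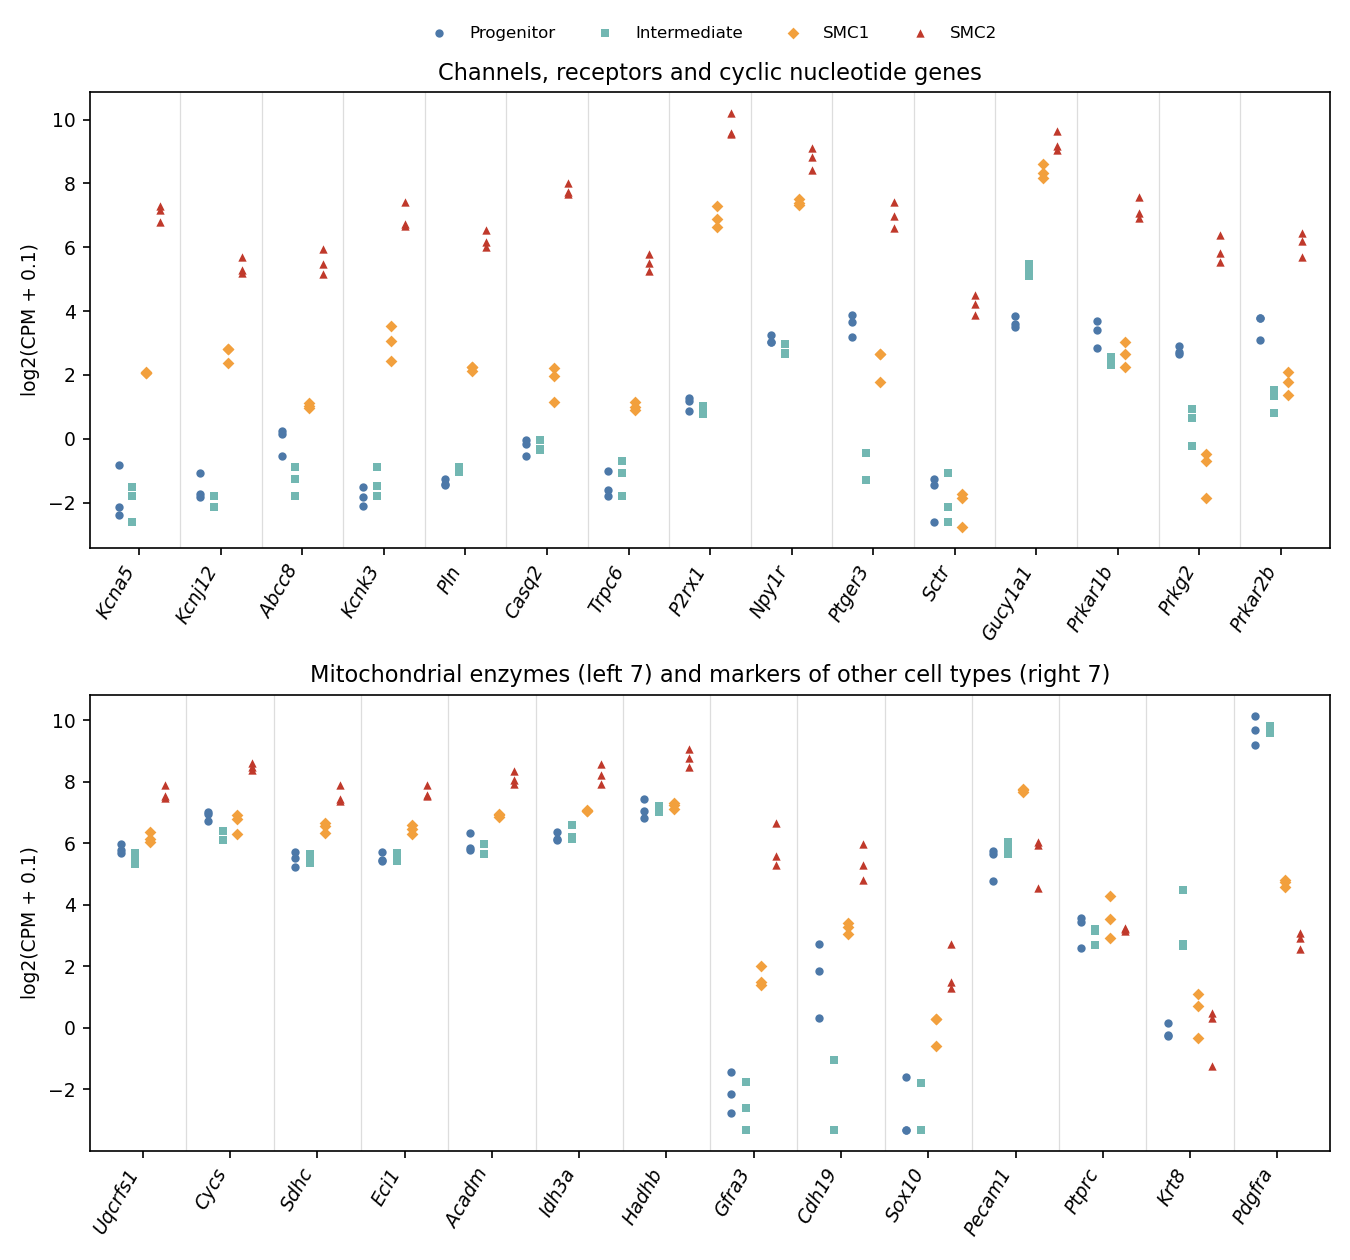
Levels of channel, receptor and cyclic nucleotide genes (top), and of 7 mitochondrial enzymes and 7 markers of other cell types (bottom), as log2(CPM + 0.1) with 1 point per library. In the top panel SMC2 lies above all other libraries for every gene. In the bottom panel the mitochondrial genes show a smaller shift, and the Schwann cell genes Gfra3, Cdh19 and Sox10 are highest in SMC2 while Pecam1, Ptprc, Krt8 and Pdgfra are not.

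Vasoactive receptor genes changed in both directions. Of 41 tested, 23 were called higher and 12 lower (median 1.15), with 14 above and 1 below all others, and 13 higher and 2 lower in the single-group fit. Compared with SMC1, 20 were higher and 11 lower, and the list summed to 3269 to 5355 CPM in SMC2 and 922 to 1655 elsewhere. P2rx1, an ATP-gated channel counted with these receptors, stood at 1183, 771 and 743 CPM in SMC2, 157, 98.4 and 119 in SMC1, 1.62, 1.95 and 1.6 in Intermediate and 1.73, 2.33 and 2.15 in Progenitor. Npy1r, a neuropeptide Y receptor, stood at 548, 454 and 342 CPM in SMC2, 166, 159.6 and 181 in SMC1, 7.77, 6.15 and 6.39 in Intermediate and 9.39, 8.07 and 8.09 in Progenitor. Ptger3, a prostaglandin E receptor, stood at 172, 126 and 96.7 CPM in SMC2, 6.26, 3.31 and 6.27 in SMC1, 0.311, 0.628 and 0.639 in Intermediate and 14.5, 8.93 and 12.6 in Progenitor. P2rx1 and Npy1r had SMC1 as the nearest population, whereas Ptger3 had Progenitor nearest and was lowest in Intermediate. Other receptors above all 9 libraries, chosen after their values were seen, included the sphingosine phosphate receptor S1pr3 (5.12 ± 0.25, adjusted p = 6.47e-11), the endothelin receptors Ednra (2.78 ± 0.17, adjusted p = 3.88e-11) and Ednrb (4.79 ± 0.19, adjusted p = 2.65e-13), the angiotensin receptor Agtr1a (3.14 ± 0.18, adjusted p = 2.58e-11) and the adrenergic receptors Adra1a, Adra2b and Adrb1. S1pr2 was the gene below all others (-2.78 ± 0.16, adjusted p = 1.46e-11).

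Genes of nitric oxide and cyclic nucleotide signalling were mostly higher than the mean of the others. Of 27 tested, 18 were called higher and 5 lower (median 1.63), with 13 above and 3 below, and 11 higher and 3 lower in the single-group fit. The share called lower, 18.5%, was near the 21.4% of all tested genes. Compared with SMC1, 14 were higher and 8 lower, and the summed levels overlapped. Gucy1a1, a subunit of the soluble guanylate cyclase that nitric oxide activates, stood at 799.5, 583 and 532 CPM in SMC2, 318, 288 and 390.03 in SMC1, 44.3, 34.1 and 37.05 in Intermediate and 11.1, 11.9 and 14.2 in Progenitor. Prkg2, a cyclic GMP-dependent kinase, stood at 83.98, 56.8 and 46.7 CPM in SMC2, 0.611, 0.513 and 0.176 in SMC1, 1.8, 0.754 and 1.47 in Intermediate and 6.15, 6.47 and 7.33 in Progenitor. Prkar1b and Prkar2b, regulatory subunits of the cyclic AMP-dependent kinase, rose by 4.41 ± 0.16 (adjusted p = 2.25e-14) and 3.97 ± 0.18 (adjusted p = 3.31e-13). The genes below all other libraries were the natriuretic peptide receptors Npr2 (-2.49) and Npr3 (-1.83) and the phosphodiesterase Pde4d (-1.68).

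Mural genes known from arterioles and pericytes were mostly higher too. Of 23 tested, 17 were called higher and 3 lower (median 2.78), with 10 above all others and Kcnj8 below, and 9 higher and 2 lower in the single-group fit. Compared with SMC1, 13 were higher and 4 lower. Rgs4, a regulator of G protein signalling, stood at 4085, 3217 and 2319.7 CPM in SMC2, 250.2, 233 and 234 in SMC1, 12.3, 10.05 and 9.01 in Intermediate and 5.56, 8.07 and 7.14 in Progenitor. The change for Rgs4 was 6.96 ± 0.17 (adjusted p = 1.57e-17). Higd1b, a pericyte-enriched mitochondrial protein, rose by 6.51 ± 0.17 (adjusted p = 5.09e-17). The pericyte genes Pdgfrb (0.30) and Steap4 (-0.30) were not called.

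Among transcription factors that mark body position, Tbx2, Tbx3 and Tbx5 rose while most T-box relatives did not. Of 34 tested members, 11 were called higher and 12 lower (median -0.02), with 7 above and 6 below all others, and 6 each way in the single-group fit. Against SMC1, 11 were higher and 10 lower. Tbx3, 147.9 kb from Tbx5 on chromosome 5, stood at 164, 105 and 111 CPM in SMC2, 4.73, 3.82 and 3.4 in SMC1, 2.05, 1.38 and 1.15 in Intermediate and 3.55, 3.13 and 3.92 in Progenitor. Tbx2, on chromosome 11, stood at 323, 189 and 195 CPM in SMC2, 19.7, 9.84 and 17.7 in SMC1, 10.998, 10.2 and 7.98 in Intermediate and 3.6, 3.0004 and 3.98 in Progenitor. Their log2 changes were 5.50 ± 0.15 (adjusted p = 1.16e-16) and 4.85 ± 0.18 (adjusted p = 3.96e-14), and SMC2 overlapped no other library in either. Mef2c, a muscle transcription factor, rose by 2.86 ± 0.14 (adjusted p = 9.82e-13), with adjusted p = 0.0619 in the single-group fit. Tbx4, Tbx15, Tbx18 and Tbx20 were not called, and Tbx1 lay below all others (-2.45 ± 0.34, adjusted p = 3.81e-06). Prrx2 (-4.15 ± 0.31, adjusted p = 1.20e-09) and Gata5 (-3.60 ± 0.60, adjusted p = 4.49e-05) were the lowest of the 6 below. These 7 genes were named after their values were seen.

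The Hox genes gave a mixed picture. Of 21 tested, 9 were called higher, 3 lower and 9 not called (median 0.58), and 4 lay above all others, among them Hoxc5 (2.17 ± 0.20, adjusted p = 1.56e-08) and Hoxd8 (1.97 ± 0.32, adjusted p = 2.96e-05). Hoxc5 stood at 17.2, 10.6 and 11.5 CPM in SMC2, 0.764, 0.653 and 0.351 in SMC1, 6.21, 3.96 and 4.98 in Intermediate and 8.2, 6.8 and 9.16 in Progenitor, so that SMC1 was far below the other 3 populations. In the single-group fit 3 Hox genes were higher and 2 lower, beside 1697 and 1844 of all 19016 tested genes. Against SMC1, 10 were higher and 3 lower (median 1.06), and against Progenitor 8 were higher and 0 lower (median 0.475). Against Intermediate, 4 were higher and 6 lower (median -0.04). Of all tested genes, 23.1% were called higher and 21.7% lower against Progenitor, and 21.4% higher and 23.2% lower against Intermediate. Of 34 nuclear hormone receptors tested, 15 were called higher and 13 lower (median 0.26), with 11 above and 5 below, and 11 higher and 5 lower in the single-group fit. Against SMC1, 16 were higher and 9 lower. Nr4a2, an orphan receptor induced by cyclic AMP and calcium, stood at 710.4, 529 and 475 CPM in SMC2, 51.3, 56.7 and 42.99 in SMC1, 102, 83.4 and 121 in Intermediate and 44.6, 56.9 and 46.2 in Progenitor. Nr4a3 (1.77 ± 0.14, adjusted p = 1.25e-09) and Rxrg, a retinoid X receptor (3.97 ± 0.23, adjusted p = 1.36e-11), were also above all others. The 5 receptors below all 9 included Esr1 (-2.68), Rarg (-1.83), Rora (-1.54) and Nr3c1 (-1.20), among them receptors for oestrogen, retinoic acid and glucocorticoids.

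Of 42 tested genes of Notch, BMP and TGF-beta signalling, 16 were called higher and 12 lower (median -0.07), with 11 above and 4 below all others, and 11 higher and 5 lower in the single-group fit. Against SMC1, 15 were higher and 15 lower. Notch3, the Notch receptor of arterial smooth muscle, stood at 595, 353 and 348 CPM in SMC2, 58.1, 41.4 and 55.4 in SMC1, 6.71, 7.22 and 5.81 in Intermediate and 6.61, 6.73 and 10.2 in Progenitor. Nrarp, a Notch target that feeds back on the pathway, rose by 6.25 ± 0.40 against the mean of the others (adjusted p = 5.52e-11). It was at 7.74 ± 1.73 CPM in SMC2 and 0.354 ± 0.316 in SMC1 (SD, n = 3). At such levels outside SMC2 a library holds few reads, and the size of the log2 change rests on them. The ligands Bmp6 (3.68 ± 0.18, adjusted p = 1.84e-12) and Bmp2 (3.11 ± 0.17, adjusted p = 7.64e-12) were above all others. All 4 genes below were receptors, Acvrl1 (-2.17), Acvr1 (-1.25), Tgfbr2 (-1.27) and Tgfbr3 (-1.17).

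The gene that stood furthest below the nearest other population was Ace, and collagen and other extracellular matrix genes were among the 15 ranked lowest. Ace, the angiotensin-converting enzyme (chromosome 11, 105967945 to 105989964), stood at 7.59, 14.6 and 17.5 CPM in SMC2, 178, 146 and 205 in SMC1, 510.3, 686 and 687 in Intermediate and 253, 485 and 669 in Progenitor. The log2 change for Ace was -4.82 ± 0.35 (adjusted p = 4.40e-09), and its nearest population was SMC1. Col1a1, the main chain of type I collagen, stood at 57.6, 99.9 and 119 CPM in SMC2, 905, 524 and 962 in SMC1, 8396, 7079 and 5493 in Intermediate and 1293, 3345 and 3982 in Progenitor, a change of -4.78 ± 0.40 (adjusted p = 3.40e-08). Itgbl1, a secreted integrin beta-like protein, stood at 51.7, 130.2 and 86.3 CPM in SMC2, 757, 842 and 868 in SMC1, 3375, 2862 and 2722 in Intermediate and 749.95, 921 and 813 in Progenitor, a change of -3.82 ± 0.25 (adjusted p = 1.09e-10). The highest SMC2 library was well below the lowest other library in each. The levels of the other populations differed among themselves, with Intermediate highest for Col1a1 and Itgbl1.

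The other genes ranked lowest were Galnt15, a glycosyltransferase (-4.03), Col15a1, a collagen near basement membranes (-4.09), the scavenger receptor Colec12 (-3.50), Adamtsl3 (-4.43), Fbn1, the microfibril protein fibrillin (-3.60), Aebp1, a collagen-binding protein (-3.36), Sfrp2, a secreted Wnt modulator (-4.51), the sulfotransferase Ust (-3.15), Ltbp4, a latent TGF-beta binding protein (-3.52), Gxylt2 (-3.50), the phospholipase Pla2g4a (-2.79) and Scara3 (-2.97). In all 15, SMC2 replicate 1 was the lowest library. Exon bases overlap another gene by 20.1% in Fbn1 and 16.1% in Sfrp2.

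Of 21 tested elastic fibre genes, 0 were called higher, 20 lower and 1, Fbn2, was not called, with a median log2 change of -2.23. In 14 of them SMC2 lay below all 9 other libraries, and against SMC1 17 were lower and 1 higher. Fbn1 stood at 29.8, 48.1 and 42.7 CPM in SMC2, 327, 300.3 and 412 in SMC1, 492, 495 and 465 in Intermediate and 406, 672 and 980.2 in Progenitor. Loxl4, a crosslinking enzyme, stood at 1.89, 2.37 and 2.34 CPM in SMC2, 10.5, 9.79 and 10.5 in SMC1, 46.8, 58.1 and 63.2 in Intermediate and 38.2, 52.3 and 71.7 in Progenitor. Loxl3 (-1.87 ± 0.17, adjusted p = 8.97e-09) and Emilin1, an elastin-interface protein (-1.91 ± 0.18, adjusted p = 2.84e-08), were lower by smaller amounts. Elastin itself, named after its values were seen, did not separate. Eln stood at 347, 723 and 517 CPM in SMC2, 5388, 3759.9 and 4806 in SMC1, 2363, 1706 and 1231 in Intermediate and 150.03, 274 and 295 in Progenitor, so that Progenitor was lowest and SMC2 next. Its log2 change against SMC1 was -3.14 ± 0.32 (adjusted p = 2.60e-07).

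Of 32 tested fibrillar and interstitial matrix genes, 3 were called higher, 28 lower and 1 not called (median -2.63), with 18 below all others and 1, Thbs1 (2.31 ± 0.23, adjusted p = 2.47e-07), above, and 1 higher and 21 lower in the single-group fit. Against SMC1, 21 were lower and 6 higher. Col3a1 stood at 582, 1036 and 1125 CPM in SMC2, 6075, 4569 and 5705 in SMC1, 31287, 33395 and 30852 in Intermediate and 24307, 26303 and 38789 in Progenitor. Col5a2 fell to 79.7 ± 20.1 CPM in SMC2 from 487 ± 26.1 in SMC1, and Col8a2 to 0.651 ± 0.286 from 1.67 ± 0.535. Lum, the proteoglycan lumican, was called lower (-4.26 ± 0.29, adjusted p = 1.59e-10), but SMC2 and SMC1 overlapped. Of 31 basement membrane and integrin genes, 7 were called higher and 18 lower (median -1.02), and in the single-group fit 0 were higher and 10 lower. The share called higher, 22.6%, was near the 22.2% of all tested genes. Against SMC1, 2 were higher and 20 lower. Lama5, a laminin chain, was the gene above all others, at 181, 141 and 134 CPM in SMC2, 104, 97.2 and 106 in SMC1, 4.78, 7.28 and 6.13 in Intermediate and 2.19, 7.53 and 4.99 in Progenitor. Col4a3, a basement membrane collagen chain, fell (-3.18 ± 0.20, adjusted p = 4.47e-11), and the integrin genes Itga7 (3.91 ± 0.19, adjusted p = 3.33e-12) and Itga1 (1.77 ± 0.12, adjusted p = 2.50e-10) were called higher with SMC2 overlapping SMC1.

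Markers of the fibroblast-like progenitors were low in SMC2, although for most of them SMC1 was low too. Of 24 tested members of that list, 2 were called higher and 19 lower (median -2.86), with 6 below all others and 8 lower in the single-group fit, and with 3 higher and 8 lower against SMC1. Pdgfra, the platelet-derived growth factor receptor alpha, stood at 5.8, 7.51 and 8.28 CPM in SMC2, 27.6, 23.8 and 26.4 in SMC1, 769.8, 795 and 891 in Intermediate and 814, 582 and 1131 in Progenitor. Cd34 stood at 13.99, 35.02 and 36.1 CPM in SMC2, 75.1, 48.5 and 40.005 in SMC1, 1487, 1143 and 1071 in Intermediate and 1984, 1919 and 1905 in Progenitor. SMC2 lay below SMC1 in both, at a small fraction of the Progenitor level. Islr (-2.70 ± 0.20, adjusted p = 4.48e-10) was below all others as well, and Scara5 (-3.78 ± 0.30, adjusted p = 3.17e-09) was called lower with SMC2 overlapping SMC1. Summed over the list, SMC2 held 1816 to 2159.9 CPM, SMC1 4111 to 5145, Intermediate 10053 to 13532 and Progenitor 18998 to 20188.

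Chemokine and complement genes were lower in SMC2 than in the mean of the others, but mostly higher than in SMC1 where they differed from it. Of 29 tested, 2 were called higher and 19 lower (median -1.51), with 5 below all others and C6 (2.60 ± 0.37, adjusted p = 6.38e-06) above, and 1 higher and 6 lower in the single-group fit. Against SMC1 alone, 14 members were higher and 5 lower (median 0.83), and the list summed to 2627 to 2842 CPM in SMC2, 1768 to 2119 in SMC1 and 22178 to 26935 in the other 2 populations. The alarmin Il33 stood at 5.57, 9.78 and 8.64 CPM in SMC2, 14.7, 9.93 and 10.7 in SMC1, 415, 349 and 379 in Intermediate and 355, 303 and 302 in Progenitor. C7, a terminal complement component, stood at 9.66, 21.1 and 22.3 CPM in SMC2, 43.8, 29.6 and 22.7 in SMC1, 2768, 2852 and 2658 in Intermediate and 1544, 2123 and 2451 in Progenitor. Both were far higher in Progenitor and Intermediate than in either SMC population, where the gap between SMC1 and SMC2 was narrow. C1ra, a complement protease, was called lower (-2.08 ± 0.16, adjusted p = 1.21e-09) with SMC2 overlapping SMC1.

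Markers of other cell types were measured beside these results. In the Schwann and neuronal list, 8 of 15 tested were called higher and 1 lower (median 1.35), and 5 lay above all others. Gfra3, a receptor of the glial cell line-derived factor family, stood at 38.98, 48.01 and 101 CPM in SMC2, 2.49, 2.7 and 3.92 in SMC1, 0, 0.0628 and 0.192 in Intermediate and 0.0456, 0.267 and 0.126 in Progenitor. Sox10, the defining transcription factor of Schwann cells, stood at 2.35, 2.72 and 6.48 CPM in SMC2, 1.12, 0.56 and 1.11 in SMC1, 0.186, 0 and 0 in Intermediate and 0.228, 0 and 0 in Progenitor. In all 5 genes above, which include Sox10, Erbb3, Cdh19 and Gfra3, the highest SMC2 library was replicate 3, unlike most genes above. The list summed to 399 to 719 CPM in SMC2, 161 to 243 in SMC1, 589 to 709 in Intermediate and 557 to 751 in Progenitor. The part of such cells in the SMC2 results was not tested. Without SMC2 replicate 3, 6 members of the list were higher and 1 lower.

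Endothelial markers did not follow SMC2. Of 20 tested, 2 were called higher and 5 lower (median -0.33), with 2 higher and 10 lower against SMC1. The share called lower, 25%, was near the 21.4% of all tested genes. The list summed to 635 to 645 CPM in SMC2 against 622 to 1000.2 in SMC1, 359 to 471 in Intermediate and 294 to 477 in Progenitor. Most of the SMC2 sum came from Esam, a cell adhesion gene, at 390.4 ± 93.02 CPM (4.01 ± 0.18, adjusted p = 4.91e-13). The defining endothelial genes Cdh5 (2.18 ± 1.09 CPM) and Pecam1 (49.8 ± 23.3 CPM) were not above the others, and Pecam1 was called lower (-0.70 ± 0.26, adjusted p = 0.0388), a call lost with upper-quartile factors or without single libraries. Of 22 leukocyte markers, Fcer1g was called higher (1.54 ± 0.30, adjusted p = 3.22e-04) and 0 lower, with sums of 168 to 334 CPM in SMC2 and 128 to 772 elsewhere, and Ptprc, which marks all leukocytes, was not called (-0.13 ± 0.24, adjusted p = 0.70). Of 17 mesothelial markers, 2 were called higher and 13 lower (median -1.39), with 1 lower in the single-group fit, and they summed to 152 to 195 CPM in SMC2 and up to 825 in Intermediate. Krt8, a mesothelial keratin, had 0.915 ± 0.519 CPM in SMC2.

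Genes induced quickly by stimulation and by cell handling were partly higher in SMC2. Of 31 immediate early and stress genes, 16 were called higher, 0 lower and 15 not called (median 0.50), with 11 above all others, and 8 were higher in the single-group fit. Against SMC1, 19 were higher and 3 lower. Nr4a1 stood at 2771, 2074 and 1987 CPM in SMC2, 567, 598 and 541 in SMC1, 908, 807 and 785 in Intermediate and 409.9, 599 and 613 in Progenitor. Atf3 stood at 1672, 1508 and 1354 CPM in SMC2, 599, 588 and 530.5 in SMC1, 438, 331 and 411 in Intermediate and 504, 543 and 549.7 in Progenitor. Gadd45b rose by a smaller amount (1.11 ± 0.14, adjusted p = 7.78e-07). Jun (0.00), Egr1 (0.14), Dusp1 (-0.15) and the heat shock genes Hspa1a (0.29) and Hspa1b (0.17) were not called. The list summed to 24425 to 29193 CPM in SMC2 and 15939 to 22527 elsewhere. Its part in the differences of other gene groups was not tested.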

How the data were processed

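The deposited tables hold 33352 genes for 12 libraries of sorted cells. The authors deposited raw counts, normalized counts (a signal, counts divided by size factors) and regularized log2 values. The normalized counts were not used, and the regularized log2 values served as an alternative. Build mm10, the aligner STAR 2.5.2a and DESeq2 1.26.0 are listed in the submitters' processing notes. For the counting program and its handling of reads that match several genes, the answer is not given in the sources used here. Names and coordinates follow GENCODE M21 (GRCm38), which matched 33323 rows. Libraries came from a SMART-Seq kit that does not mark strand, per the labels' protocols.

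Raw counts were fitted with edgeR 4.0.16 (R 4.3.3): filterByExpr (19016 genes), TMM factors, a mean per group over 12 libraries (8 residual degrees of freedom, common biological coefficient of variation 0.206), robust dispersion, and a two-sided quasi-likelihood F test of SMC2 against the mean of the other 3 groups with Benjamini-Hochberg adjustment at 0.05. Libraries were compared on log2 CPM with a prior count of 2, and plots add 0.1 CPM. Alternatives used DESeq2 1.42.0 and limma 3.58.1. The code was tested on simulated counts. Promoters are from RefSeq (GRCm38).

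The 27 lists (804 genes) and the genes to describe were chosen with earlier results of these data known. Named genes are the 15 highest and 15 lowest by distance to the nearest group mean among called genes whose SMC2 libraries lie outside all 9 others, and whose mean reached 4 log2 CPM in SMC2 (higher) or in the lowest other group (lower), passing over gene models without a proper name. To these were added the markers Tbx5, Olfr78, Rergl and Plin1, up to 4 called members of each list with the smallest adjusted p, and the identity genes Acta2, Myh11, Pdgfra, Cd34, Pparg, Adipoq, Ucp1, Ptprc, Pecam1 and Krt8. Some genes that this rule names are not reported here. Any other gene was chosen after its values were seen. Reads are of amplified fragments, without molecular identifiers.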

Additional observations from a re-analysis of the deposited data

How the results depend on the processing

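Called genes numbered 8298 with TMM scaling, 8300 with median-of-ratios factors, 8379 with upper-quartile factors, 8360 with limma-voom, 8451 with the DESeq2 Wald test and 8647 without a filter on low counts. With the 9 other libraries as a single group, 3541 were called, 1697 higher and 1844 lower. Differences among the 3 populations then count as spread. The reference is then the pooled level of the 9 libraries, so the log2 changes differ as well. Tested against a change of 2-fold, 2655 were called, 1421 higher and 1234 lower. A required gap of 1 log2 unit left 507 genes above and 209 below. Leaving out each library in turn gave 6846 to 8320 called genes (3377 to 4239 higher, 3469 to 4127 lower), 1932 to 2542 genes above and 1753 to 2256 below, where fewer libraries are also easier to separate. Without SMC2 replicate 3, the shallowest library, 3672 of the 4227 higher and 3464 of the 4071 lower calls were kept. The replicate number was not taken to pair the libraries in the main fit. Same-numbered libraries of all populations share a name prefix, and the labels do not say whether it marks a shared preparation. Same-numbered deviations of SMC2 and the mean of the others correlated at -0.09, -0.06 and -0.21, too few values to decide this. A fit that adds the replicate number as a block called 8612 genes (4451 higher, 4161 lower). With the authors' regularized log2 values, 1913 genes were above and 1700 below. Of 2640 results for 132 named genes under alternatives, 2593 had the call of the main fit, 47 lost it and 0 reversed. A change of sign was not counted where a gene was called in neither fit. Outside the single-group fit and the 2-fold test, calls were lost by Ucp1 and Pecam1 without single libraries, by Pecam1 with upper-quartile factors, and by Krt8 with limma-voom and without single libraries. Depth limits genes near 1 CPM, where a library holds few reads.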

Other observations

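Enzymes of oxidation and conjugation were divided in SMC2. Of 38 tested, 11 were called higher and 21 lower in edgeR's quasi-likelihood test (median log2 change -0.75), with 7 above and 9 below all other libraries, and 7 higher and 10 lower in the single-group fit. Against SMC1 alone, 16 were higher and 12 lower. Cyp2e1, a cytochrome P450 that oxidises ethanol and other small molecules, stood at 245, 289 and 321 CPM in SMC2, 4.07, 0.933 and 2.46 in SMC1, 4.35, 2.2 and 2.75 in Intermediate and 10.3, 14.3 and 9.29 in Progenitor, and SMC2 overlapped no other group. Ephx2, the soluble epoxide hydrolase, rose by 2.66 ± 0.14 (adjusted p = 1.34e-12). Ces1f, a carboxylesterase of a cluster of related neighbouring genes between which reads can be split, rose by 5.19 ± 0.30 (adjusted p = 8.01e-12). Among the genes below all others were the sterol hydroxylase Cyp27a1 (-2.81) and the flavin monooxygenase Fmo2 (-3.28).

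Axon guidance genes, which steer growing axons and vessels, were mostly lower. Of 36 tested, 7 were called higher and 20 lower (median -0.73), with 2 above and 7 below all others. The share called higher, 19.4%, was near the 22.2% of all tested genes. In the single-group fit, 1 was higher and 6 lower. Against SMC1 alone, 6 were higher and 19 lower. Epha3, an ephrin receptor, stood at 13.1, 27.02 and 21.5 CPM in SMC2, 154, 198 and 201 in SMC1, 555, 534 and 596 in Intermediate and 107, 119 and 133 in Progenitor, and the semaphorin Sema3d at 16.8, 44.3 and 33.4 CPM in SMC2, 210.4, 273 and 265 in SMC1, 187, 171 and 198 in Intermediate and 49.5, 56.4 and 62.98 in Progenitor. SMC2 lay below every other library in both. Plxnb1, a plexin receptor for semaphorins, rose by 2.82 ± 0.23 (adjusted p = 2.19e-08), and Nrp1, the neuropilin coreceptor, was called lower (-1.39 ± 0.14, adjusted p = 5.58e-08) with SMC2 overlapping SMC1.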
